A study of Homo sapiens with 18 samples.

Results

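Open chromatin was described at the 7 human genes that encode the subunits of the transcription factor AP-1, namely JUN, JUNB, JUND, FOS, FOSB, FOSL1 and FOSL2. The loci were chosen by gene name, and a locus was the gene body on hg19 with 50 kb on each side. Merging the 18 peak lists of the series gave 150322 regions of open chromatin, and 79 of them touched these loci. They were 7 at JUN, 18 at JUNB, 11 at JUND, 10 at FOS, 13 at FOSB, 11 at FOSL1 and 9 at FOSL2, and they held 830 of the 781454 peaks kept.

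The peaks came from ATAC-seq, in which a transposase cuts and tags accessible DNA. Kelly and BE2C, both human neuroblastoma lines (BE2C is a clonal subline), carried the lentiviral hairpin shAhR-2 against AHR, the hairpin shAhR-1 against AHR, or the empty pLKO vector as control. Each of the 6 groups had 3 libraries, and every group, controls included, had been transduced. AHR encodes a ligand-activated transcription factor. Its level in these cells was not analysed here, and no ligand treatment is named in the labels. The labels do not say whether replicates came from separate cultures, so p-values measure the spread between libraries, which may be technical.

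AP-1 is a dimer of leucine zipper proteins. JUN proteins pair with each other or with FOS proteins, whereas FOS proteins need a JUN partner, and the dimers bind the DNA motif TGANTCA or the related motif TGACNTCA. FOS, FOSB, JUN and JUNB are immediate-early genes that growth factors and stress induce within minutes, FOSL1 and FOSL2 follow more slowly, and JUND is made in most cells at a steady level. In neuroblastoma, AP-1 activity is a known trait of mesenchymal-like cells, in contrast to adrenergic ones.

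Promoter sequences from RefSeq (GRCh38.p14) were matched for 6 of the 7 genes, all except FOSL1. JUN, JUND and JUNB are printed because their promoter peaks carry the results below, and a short stretch of FOSL2 is printed because it holds the only TGANTCA match. Each promoter sequence runs 5′ to 3′ on the strand of the gene and holds the 250 bases before the gene start, and the capitals mark a match to TGANTCA or TGACNTCA.
JUN, chr1:58784048-58784297, minus strand: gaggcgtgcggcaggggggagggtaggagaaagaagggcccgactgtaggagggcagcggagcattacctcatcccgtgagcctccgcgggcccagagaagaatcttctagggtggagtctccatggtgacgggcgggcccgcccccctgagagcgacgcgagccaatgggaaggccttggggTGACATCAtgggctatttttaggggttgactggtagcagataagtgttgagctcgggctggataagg
JUND, chr19:18281623-18281872, minus strand: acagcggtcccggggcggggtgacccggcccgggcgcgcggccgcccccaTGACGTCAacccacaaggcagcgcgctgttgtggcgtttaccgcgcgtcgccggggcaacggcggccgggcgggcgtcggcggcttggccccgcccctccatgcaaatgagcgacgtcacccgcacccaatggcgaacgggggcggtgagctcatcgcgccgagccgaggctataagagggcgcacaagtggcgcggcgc
JUNB, chr19:12791236-12791485, plus strand: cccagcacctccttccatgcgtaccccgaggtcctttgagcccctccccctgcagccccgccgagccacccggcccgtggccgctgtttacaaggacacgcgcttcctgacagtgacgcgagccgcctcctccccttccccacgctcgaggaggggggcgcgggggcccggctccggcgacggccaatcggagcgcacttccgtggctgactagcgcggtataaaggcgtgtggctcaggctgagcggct
FOSL2, 30 bases around the match, chr2:28392851-28392880, plus strand: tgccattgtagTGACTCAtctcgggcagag

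The 300 bases from 250 before to 50 after each gene start were searched on both strands. TGACNTCA matched once in JUN, from position -67, and once in JUND, from position -200, and this motif was present in 7.72% of 35116 human promoters of the same length. JUN is known to act on its own promoter through sites of this kind. TGANTCA matched only in FOSL2, from position 5 after the start, and was present in 7.71% of promoters. The matches of these 2 motifs lie in different promoters and do not overlap. GCGTG, the core of the element that AHR binds with its partner ARNT, matched 3 times in JUNB, once each in JUN, FOS and FOSB, and not in JUND or FOSL2, against 36.5% of promoters with a match. A match is only a match of letters, and gene starts can differ between this annotation and the hg19 coordinates used for the peaks.

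The lists differed in length, and this touches every result below. All 6 shAhR-2 lists were longer (60457 to 65740 peaks in Kelly and 75798 to 81637 in BE2C) than the 12 other lists (9204 to 45023 peaks), so that the hairpin and whatever lengthened these lists cannot be told apart. Replicate 1 of Kelly shAhR-1 had the shortest list. Read depth was not used here, and a missing peak means that no peak was called, not that the site was closed. For comparisons, lists were therefore shortened to their strongest peaks by −log10 p, 9204 per library within Kelly and 25660 within BE2C. Binding of AHR or AP-1 was not measured, and marker genes of the cells were not analysed here. In such bulk samples, fewer cells with an open site and a less open site in each cell cannot be told apart.

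Regions at the 7 loci recurred across the lists. A region at the loci had a peak in a median of 13.0 of the 18 lists, against 3.00 over the whole series. All 18 lists held a peak in 5 of the 79 regions, or 6.33%, against 4.22% of all regions, and 10 regions, or 12.7%, appeared in 1 list only, against 37.6%. The 5 constant regions were the promoters of JUN, JUND and FOSL2, a region 15.6 kb downstream of the FOS start and a region 44.1 kb upstream of the FOSB start. Per library the loci held 52 to 61 peaks in Kelly shAhR-2, 6 to 35 in Kelly shAhR-1, 29 to 53 in Kelly pLKO, 66 to 67 in BE2C shAhR-2, 34 to 48 in BE2C shAhR-1 and 46 to 51 in BE2C pLKO. The outermost region of each locus lay 40.7 to 48.5 kb from the gene body with a peak in 1 to 17 lists, and the first region beyond the 50 kb limit lay 53.5 to 65.8 kb away with a peak in 1 to 18 lists.

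**Figure D1:**
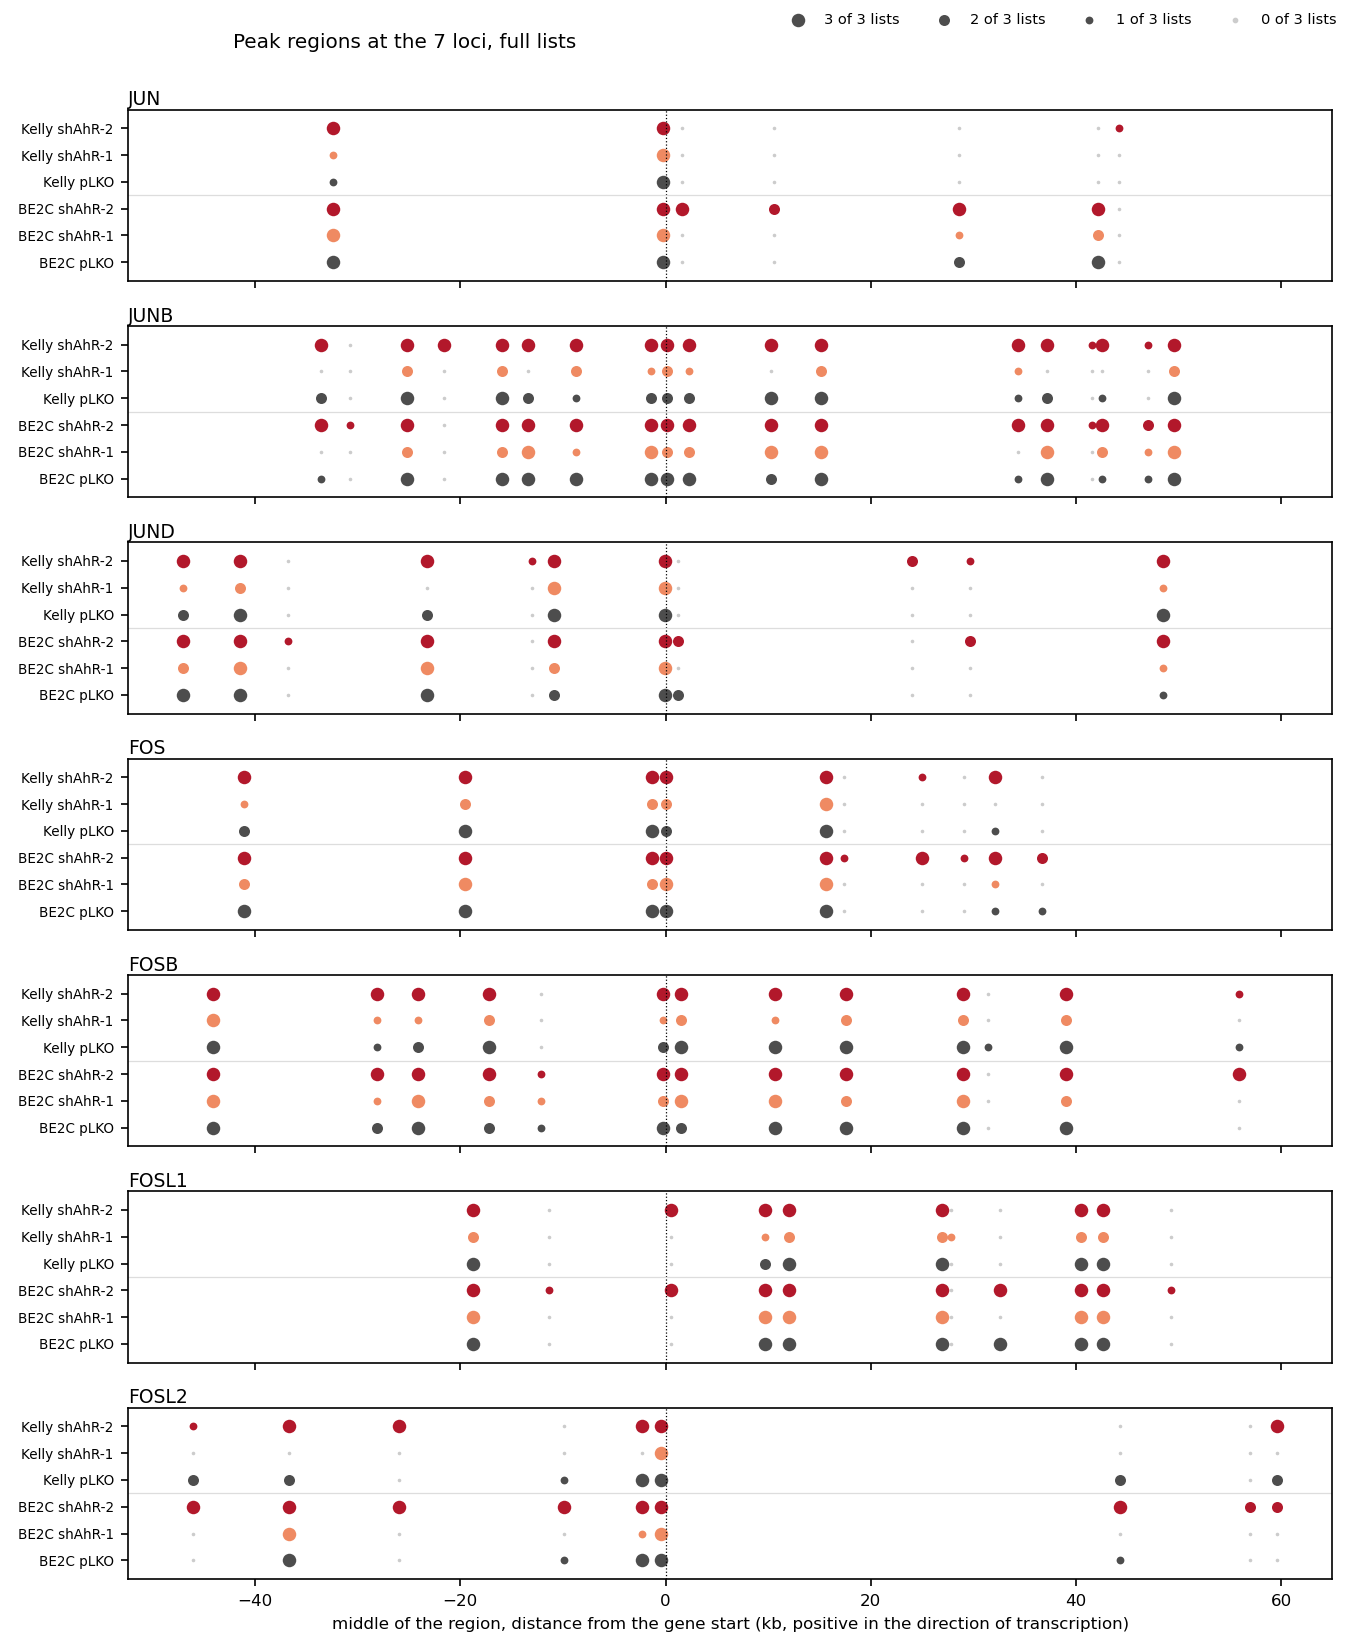
Each dot is a merged region of open chromatin, placed by the distance of its middle from the gene start in kb, with 1 row per group; the dot size gives how many of the 3 libraries of the group had a peak (full lists). The promoters of JUN, JUND and FOSL2 had peaks in all 18 lists, the FOSL1 promoter only in the 6 shAhR-2 lists, and the JUN region at 42.1 kb only in BE2C.

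The windows also hold other genes. In the RefSeq annotation of GRCh38.p14, no other protein-coding gene lay within 50 kb of JUN, FOS or FOSL2. FOSB and JUND had 4 such neighbours each, JUNB had 8 and FOSL1 had 10. Distal regions at those 4 loci may belong to a neighbour, and the lists do not assign regions to genes.

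JUN, the founding member of the family and a strong activator, had a promoter region in all 18 lists (chr1:59248926-59251102 on hg19, overlapping the gene start and body). Peaks were ranked within each list by −log10 p, rank 1 being the strongest. In Kelly the JUN promoter peak ranked 3367, 3334 and 2540 in the shAhR-2 libraries, 3113, 5359 and 2313 in the shAhR-1 libraries, and 3984, 3526 and 3073 in the pLKO libraries. The 3 Kelly groups overlapped. In BE2C it ranked 12979, 9465 and 11291 in the shAhR-2 libraries, 5560, 2399 and 987 in the shAhR-1 libraries, and 2781, 2403 and 3509 in the pLKO libraries. All 3 BE2C shAhR-2 libraries, whose lists were longer, gave the JUN promoter a later rank than the other 6 BE2C libraries did. The share of all regions that separate in this way was not computed, so this order has no baseline. As a share of the full list, the rank of the JUN promoter was 12.2 to 17.1% in shAhR-2, 3.85 to 12.3% in shAhR-1 and 6.58 to 8.10% in pLKO, so that shAhR-2 lay apart from pLKO but met shAhR-1. The fold enrichment at the summit, the authors' own value per peak, was 4.79 to 5.67 in BE2C shAhR-2, 7.26 to 9.84 in BE2C shAhR-1 and 9.59 to 10.9 in BE2C pLKO, and it is given as a description only. The median fold of the full lists was 4.42 to 5.22 in BE2C shAhR-2, 5.39 to 6.29 in BE2C shAhR-1 and 5.73 to 6.33 in BE2C pLKO. The deposited −log10 p-value of the JUN promoter peak was 48.4, 60.9 and 51.8 in BE2C shAhR-2 and 48.9, 63.0 and 77.0 in BE2C pLKO, which overlapped. In BE2C shAhR-1 it was 48.2, 35.3 and 38.1, all below the shAhR-2 values.

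The log2 rank was tested with limma over all regions with a peak in each of the 9 shortened lists of a line, and the sign was set so that negative means weaker. Shortening leaves each rank as it was in the full list. It only sets which regions are tested, and the rank values are not adjusted for list length. In BE2C, in lists of equal length, the JUN promoter fell by 1.96 on the log2 rank scale under shAhR-2 against pLKO (SE 0.45, n = 3 each, limma adjusted p = 0.00213 over 15099 regions). Between shAhR-2 and shAhR-1 the difference was -2.24 (SE 0.45, limma adjusted p = 0.00118). Under shAhR-1 against pLKO the difference was 0.28 (SE 0.45, limma adjusted p = 0.776). In Kelly, the difference was 0.20 under shAhR-2 (SE 0.40, limma adjusted p = 0.811) and 0.05 under shAhR-1 (SE 0.40, limma adjusted p = 0.968).

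The contrast between the lines was tested directly in 17 libraries, leaving out replicate 1 of Kelly shAhR-1, with lists of 19984 peaks. The shAhR-2 effect on the JUN promoter was 2.16 higher in Kelly than in BE2C (SE 0.62, 95% interval 0.89 to 3.43, limma adjusted p = 0.0336 over 8875 regions). It was the only one of the 8 regions tested at the loci that was called, against 3.27% of regions called in this direction. Leaving out single libraries kept the difference between 2.03 and 2.31 but gave adjusted p-values from 0.0394 to 0.0843, so that the call was lost in 8 of 12 cases. These were the fits without replicate 1 or 2 of BE2C pLKO, replicate 1, 2 or 3 of BE2C shAhR-2, replicate 1 of Kelly pLKO, and replicate 1 or 3 of Kelly shAhR-2. With ranks as a share of the full list the JUN difference was 2.33 and was not called (SE 0.65, limma adjusted p = 0.0560). None of the 8 regions was called under that scaling, against 0.699% stronger and 0.541% weaker over the series. For shAhR-1 the difference between the lines was -0.28 (SE 0.66, limma adjusted p = 0.915), and 0 of 8 regions were called, 0 of them with an unadjusted p under 0.05, against 0.169% stronger and 0.0676% weaker.

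Away from its promoter, JUN had regions found in BE2C lists only. The region 42.1 kb downstream of the JUN start (chr1:59207265-59208073 on hg19) had a peak in 8 of 9 BE2C lists and in 0 of 9 Kelly lists, also in the Kelly lists of 60457 or more peaks. In BE2C its ranks were 24164, 22990 and 25929 under shAhR-2, 13739 and 19328 under shAhR-1 with no peak in replicate 3, and 18145, 16658 and 15464 under pLKO. Over the series, 1.03% of regions had a peak in at least 8 BE2C lists and in no Kelly list, and this was 1 of the 79 regions at the loci. The reverse pattern was found in 0.136% of regions and in 0 of the 79. Another region, 28.6 kb downstream, had a peak in 6 BE2C lists (3 shAhR-2, 1 shAhR-1 and 2 pLKO) and in no Kelly list. The region 32.4 kb upstream had a peak in all 9 BE2C lists and in 5 Kelly lists, of which 3 were shAhR-2. A small region 1.6 kb into the gene appeared only in the 3 BE2C shAhR-2 lists, with folds up to 2.27.

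**Figure D2:**
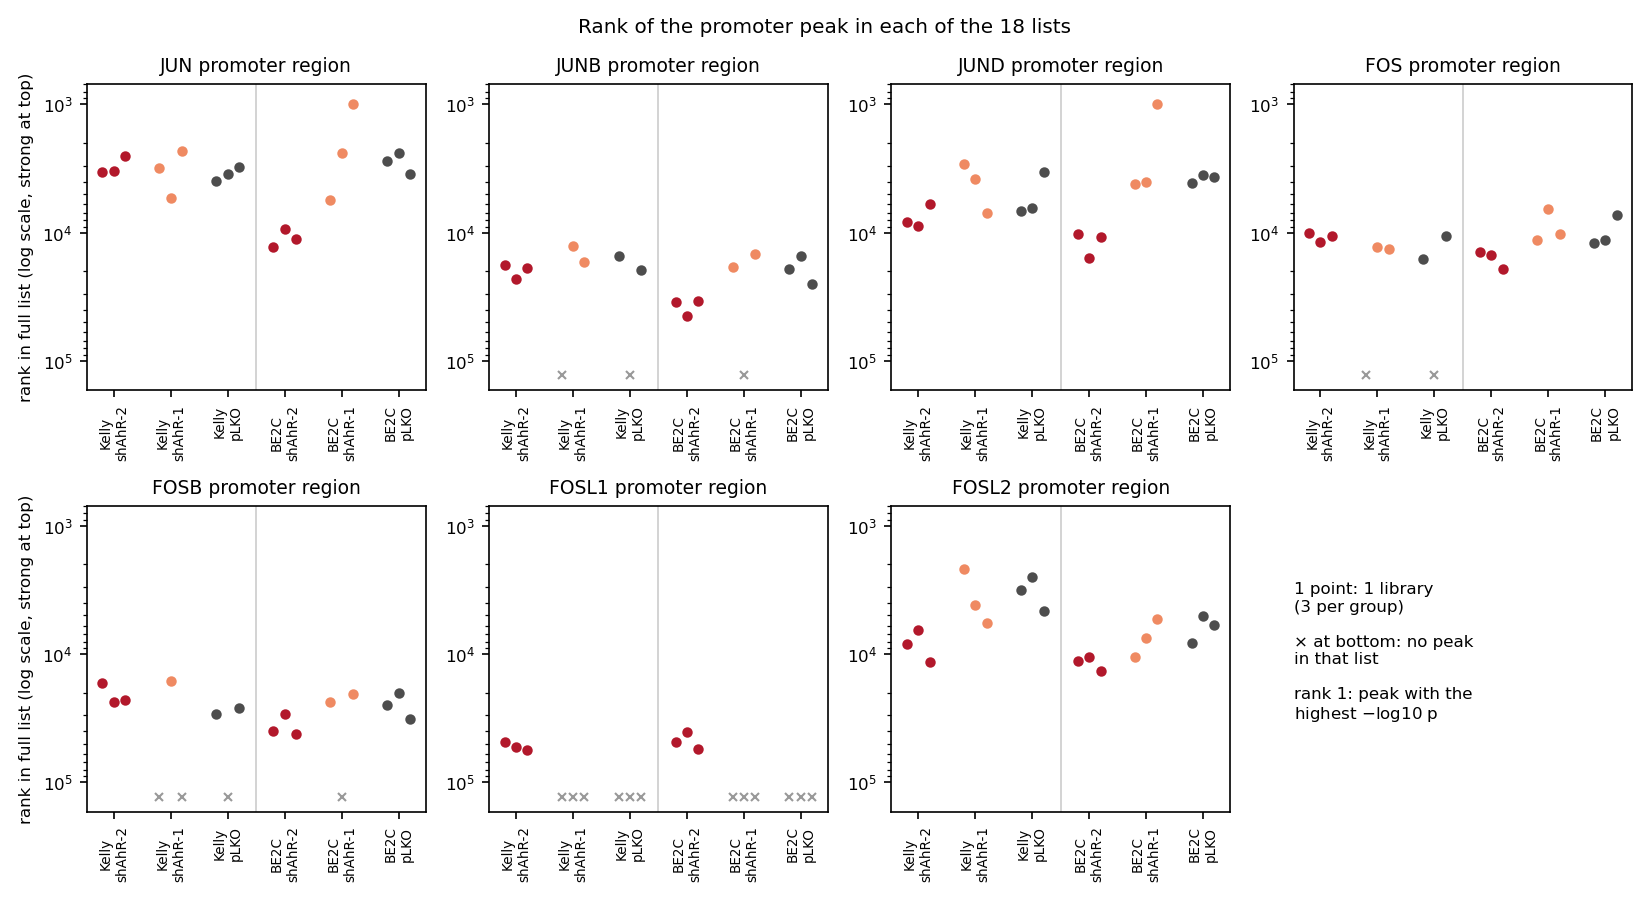
Rank of the promoter peak in each of the 18 full lists for the 7 genes (log axis, rank 1 at the top), with groups along the horizontal axis, 1 point per library and a cross where a list had no peak. The JUN promoter stood at rank 9465 to 12979 in BE2C shAhR-2 and between 987 and 5560 in the other BE2C libraries, whereas the Kelly groups overlapped.

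JUND, the steadily made JUN protein that often restrains growth, also kept a promoter peak in all 18 lists (chr19:18391913-18393210 on hg19). In BE2C it ranked 10361, 15890 and 10755 in the shAhR-2 libraries, 4196, 4047 and 995 in the shAhR-1 libraries, and 4141, 3564 and 3699 in the pLKO libraries. All 3 BE2C shAhR-2 libraries had a later rank than the other 6, an order that again has no baseline over all regions. As a share of the full list the rank of the JUND promoter was 13.2 to 20.5% in shAhR-2, 3.88 to 14.9% in shAhR-1 and 8.33 to 12.1% in pLKO. In lists of equal length the JUND promoter fell by 1.67 on the log2 rank scale under shAhR-2 against pLKO (SE 0.43, limma adjusted p = 0.00501), and the difference from shAhR-1 was -2.24 (SE 0.43, limma adjusted p = 8.54e-04). In Kelly it ranked 8316, 8924 and 6011 under shAhR-2, 2922, 3809 and 7068 under shAhR-1, and 6850, 6404 and 3356 under pLKO, and the groups overlapped. The Kelly difference under shAhR-2 was -0.53 (SE 0.35, limma adjusted p = 0.389), and the difference between the lines, 1.14, was not called (SE 0.59, limma adjusted p = 0.246). The strongest distal region of the locus, 41.5 kb upstream and found in 17 lists, ranked 8103, 7957 and 8252 in BE2C shAhR-2, 2692, 5009 and 2790 in BE2C shAhR-1, and 4223, 3527 and 3028 in BE2C pLKO. It fell by 1.19 under shAhR-2 against pLKO (SE 0.34, limma adjusted p = 0.0112), a call lost without replicate 3 of BE2C pLKO (adjusted p = 0.0513).

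JUNB, an immediate-early partner that is a weaker activator than JUN on single sites, had the most regions, 18, in the most gene-dense window but for FOSL1. Its promoter region (chr19:12902099-12902630 on hg19) had a peak in 15 lists. In BE2C the promoter peak ranked 34853, 44675 and 34141 under shAhR-2, 18627 and 14620 under shAhR-1 with no peak in replicate 2, and 19249, 15296 and 25009 under pLKO. These ranks come from lists of different length. As a share of the full list they overlapped, at 46.0, 57.6 and 41.8% in shAhR-2, 41.4 and 57.0% in shAhR-1, and 56.0, 41.9 and 56.3% in pLKO. In Kelly it ranked 17806, 23154 and 18908 under shAhR-2, 12748 and 17108 under shAhR-1 with no peak in replicate 1, and 15254 and 19476 under pLKO with no peak in replicate 2.

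Open length, the length covered by peaks in a locus window, was compared at equal list length on the scale of log2(kb + 0.5) with limma, over the loci together with all 100 kb tiles. At JUNB it was 0.580, 2.38 and 1.03 kb in the BE2C shAhR-2 libraries, 4.68, 3.01 and 3.88 kb in the shAhR-1 libraries, and 4.30, 4.53 and 5.11 kb in the pLKO libraries, with no overlap between shAhR-2 and the other groups. How many of all windows lacked such an overlap was not computed. JUNB fell by 1.61 under shAhR-2 against pLKO (SE 0.32, limma adjusted p = 0.00987 over 15287 windows), while the median of all windows was 0.38. It was the only one of the 7 loci called, against 2.04% of windows called lower and 25.3% called higher. Against shAhR-1, shAhR-2 gave -1.35 (SE 0.32, limma adjusted p = 0.0167), a call lost without replicate 3 of BE2C shAhR-2 (adjusted p = 0.0555), again for JUNB alone of 7 loci, with 1.89% of windows called lower and 37.4% higher. This fall belongs to lists of equal length. In the full lists JUNB had 8.41, 8.35 and 8.40 kb in BE2C shAhR-2, 6.25, 3.01 and 3.88 kb in shAhR-1, and 5.32, 6.03 and 6.04 kb in pLKO, and the difference from pLKO turned to 0.50 (limma adjusted p = 0.0729), where 73.9% of all windows were called higher.

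**Figure D3:**
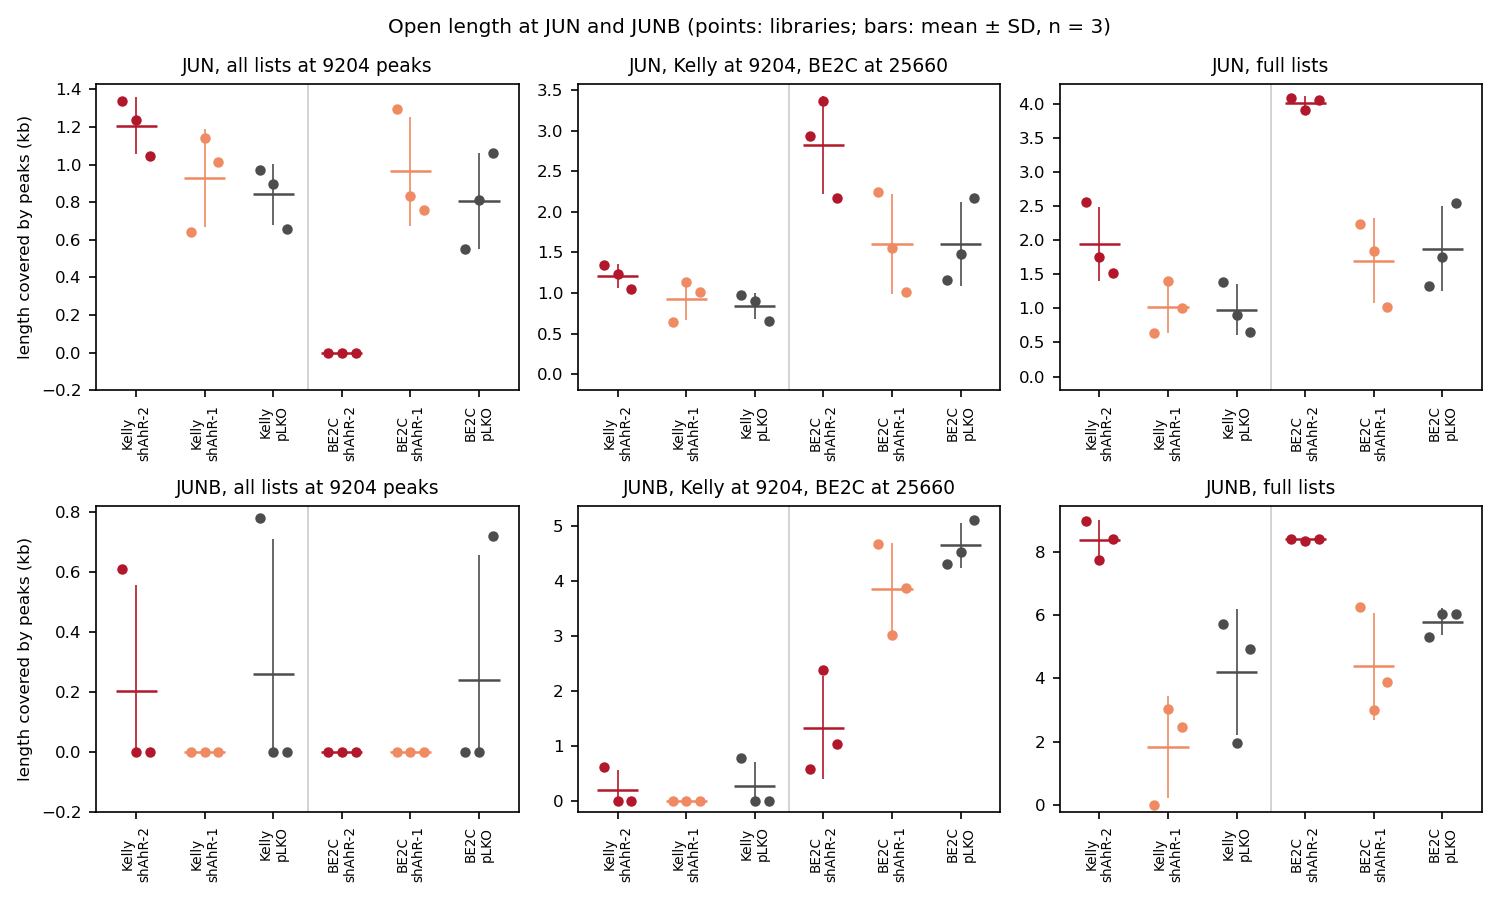
Length covered by peaks in kb at JUN and JUNB for each library (points), with the mean and SD of the 3 libraries of a group (bars), in lists of 9204 peaks, in lists matched within each line, and in full lists. At equal length within BE2C, JUNB had 0.580 to 2.38 kb in shAhR-2 and 4.30 to 5.11 kb in pLKO, and the full lists gave the opposite order.

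At the other loci no open length was called within a line. Under BE2C shAhR-2 against pLKO the remaining differences ran from -0.15 at FOSL2 to 0.67 at JUN (limma adjusted p = 0.0774). Under BE2C shAhR-1 against pLKO, 0 of 7 loci were called by limma and 0 had an unadjusted p under 0.05, against 0.615% of windows called higher and 0.419% lower. In Kelly, where JUNB had too few peaks to be tested, 0 of 6 loci were called under shAhR-2 (5.13% of windows higher, 3.18% lower), 0 of 6 under shAhR-1 (1.41% higher, 2.00% lower) and 0 of 6 between shAhR-2 and shAhR-1 (26.6% higher, 3.69% lower), and none of these had an unadjusted p under 0.05. Without replicate 1 of Kelly shAhR-1, which lengthens the lists, JUN was called higher in Kelly shAhR-2 than in pLKO, at 0.76 (SE 0.15, limma adjusted p = 0.0152). In that fit 1937 of 13459 windows were called higher and 397 lower. Kelly pLKO against BE2C pLKO gave 0 of 7 called loci and 1 with an unadjusted p under 0.05, with 6.03% of windows higher and 8.67% lower. Without replicate 1 of Kelly shAhR-1, JUN and FOSL2 were called lower in Kelly pLKO, both at -0.63 (limma adjusted p = 0.0493 and 0.0443). Of all windows, 2140 of 15737 were called lower there and 1157 higher.

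Between the lines, the shAhR-2 effect on open length was compared with all 18 lists at 9204 peaks. JUN had 1.34, 1.24 and 1.04 kb in Kelly shAhR-2 and 0.970, 0.898 and 0.658 kb in Kelly pLKO, but 0 kb in all 3 BE2C shAhR-2 libraries and 0.550, 0.812 and 1.06 kb in BE2C pLKO. The shAhR-2 effect was 1.72 higher in Kelly than in BE2C (SE 0.27, limma adjusted p = 5.09e-04), and JUN was the only one of 7 loci called, against 4.28% of windows called higher and 4.80% lower. The JUN promoter peak ranked 9465 to 12979 in BE2C shAhR-2, just past a list of 9204 peaks. Without replicate 1 of Kelly shAhR-1, which sets that length, the JUN difference was 0.28 (limma adjusted p = 0.690), and JUNB was called instead, at 3.35 (SE 0.37, limma adjusted p = 4.54e-05), against 0.36 with that library (limma adjusted p = 0.857). Without that library, 722 of 15737 windows were called higher and 747 lower. In full lists the JUN difference was -0.23 (limma adjusted p = 0.874). For shAhR-1, 0 of 7 loci were called by limma and 0 had an unadjusted p under 0.05, with 1.08% of windows higher and 1.49% lower.

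Across the loci, BE2C shAhR-2 peaks had later ranks in lists of equal length. Of the 16 regions at the loci with a peak in all 9 shortened BE2C lists, 9 were weaker under shAhR-2 than under pLKO and 0 stronger, and all 16 differences were below 0. Over all 15099 regions, 15.2% were called weaker and 15.1% stronger, with a median difference of 0.00 against a median of -0.86 at the loci. With 1 library left out, 6 to 8 regions at the loci were called. Over the series those fits called 1563 to 1796 regions weaker and 1654 to 1817 stronger. The 9 regions were the promoters of JUN, JUND and FOSL2 and distal regions of JUND, FOS, FOSL1 and FOSL2. Under shAhR-1 against pLKO, 0 of 16 were called by limma and 1 had an unadjusted p under 0.05, with 1.47% of regions weaker and 2.30% stronger over the series. Between shAhR-2 and shAhR-1, 8 of 16 were weaker and 0 stronger, against 13.1% and 13.6% of all regions. The 2 shAhR-2 comparisons share the shAhR-2 libraries. In Kelly only 3 regions at the loci could be tested, and 0 of 3 were called by limma in each comparison, with 1 unadjusted p under 0.05, for the JUND promoter between shAhR-2 and shAhR-1. The percentages over the series in Kelly were 2.36% weaker and 3.01% stronger under shAhR-2, 0.0502% and 0.251% under shAhR-1, and 5.07% and 8.88% between shAhR-2 and shAhR-1. Replicate 1 of Kelly shAhR-1, with 9204 peaks, limits which Kelly regions could be tested. With 1 library left out, 0 to 2 regions were called in Kelly shAhR-2 against pLKO and 0 to 1 against shAhR-1. Without that replicate, 525 of 11276 regions were weaker and 661 stronger under shAhR-2 against pLKO. A rank gives the standing of a peak among the peaks of its own library, not an amount of open chromatin.

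These calls depend on the scaling. With the rank taken as a share of the full list, a scaling added after the data were seen, the median of all 15099 BE2C regions moved to 1.03 under shAhR-2 against pLKO, with 57.2% of regions called stronger and 1.57% weaker. All 9 calls of a weaker region were then lost. Of the 16 regions at the loci, 0 were weaker and 1 was stronger, 32.4 kb upstream of JUN, and 7 were below 0. The median at the loci was 0.18. The JUN promoter stood at -0.93 (SE 0.46, limma adjusted p = 0.0799) and the JUND promoter at -0.64 (SE 0.46, limma adjusted p = 0.227). Of the 9 regions, the JUN and JUND promoters had shAhR-2 and pLKO libraries that did not overlap as a share of the list, and the other 7 overlapped. The 9 were picked by the rank test on the same libraries. The share without overlap over all 15099 regions was not computed, so this count has no baseline. Between shAhR-2 and shAhR-1, 4 of 16 were stronger and 0 weaker in BE2C (72.9% and 0.682% of regions), and 2 of 3 were stronger and 0 weaker in Kelly (74.4% and 0.502%). The equal-length results describe a place among all peaks of a library, tested over the regions shared by the shortened lists.

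**Figure D4:**
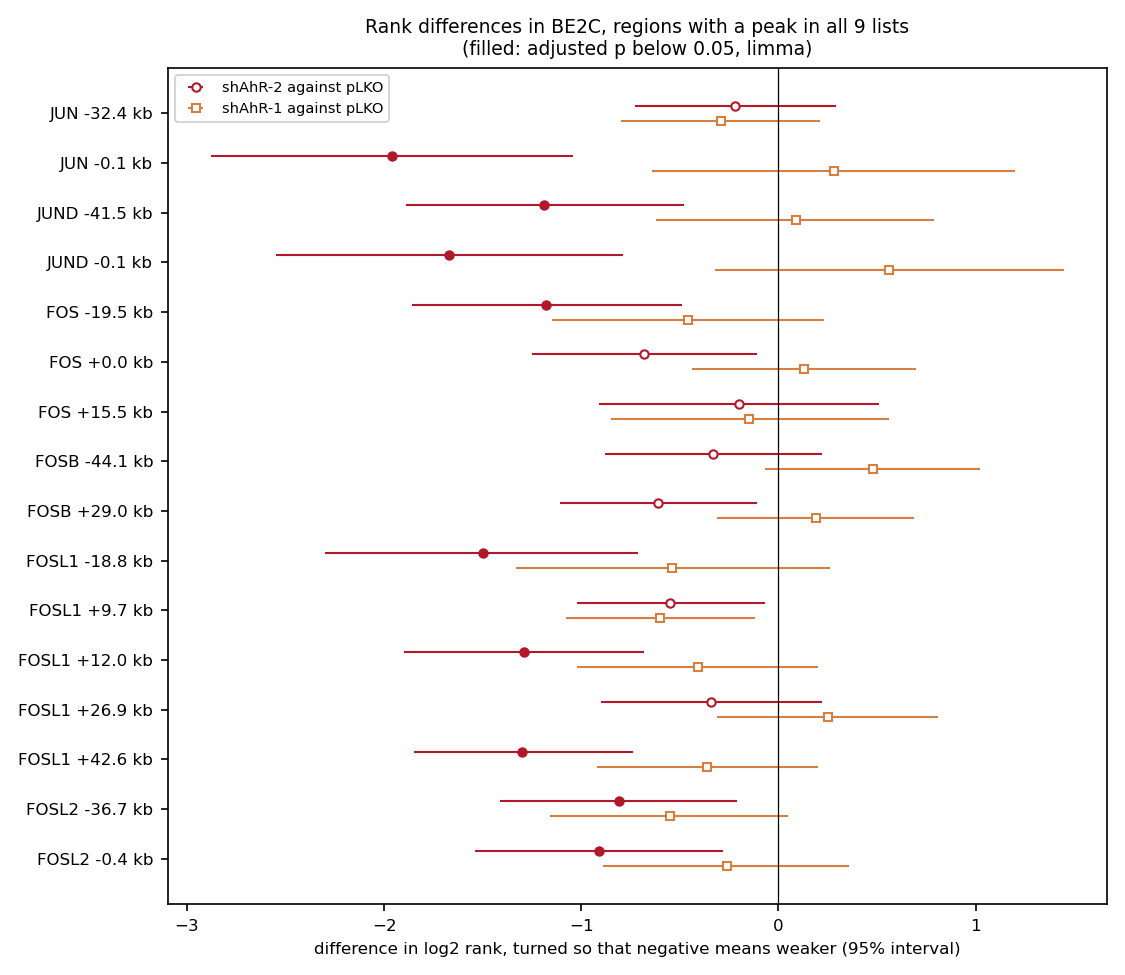
Differences in log2 rank, in lists of equal length, in BE2C for the 16 regions at the loci with a peak in all 9 shortened lists, with 95% intervals; circles show shAhR-2 against pLKO, squares shAhR-1 against pLKO, and filled symbols mark an adjusted p below 0.05. The JUN promoter lies at -1.96 under shAhR-2 and at 0.28 under shAhR-1. Shortening the lists leaves the ranks themselves unchanged.

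FOS, the classic immediate-early partner of JUN, had a promoter peak in 16 lists (chr14:75744831-75746150 on hg19). In BE2C it ranked 14238, 15029 and 19198 under shAhR-2, 11475, 6520 and 10194 under shAhR-1, and 12018, 11390 and 7299 under pLKO. As a share of the full list it was 18.8 to 23.5% in shAhR-2 and 16.4 to 35.0% in pLKO, which overlapped. In lists of equal length the difference from pLKO, -0.68, was not called (SE 0.28, limma adjusted p = 0.0659), while that from shAhR-1, -0.81, was (SE 0.28, limma adjusted p = 0.0334). The second call was lost without replicate 2 of BE2C shAhR-1 or any 1 of the BE2C shAhR-2 replicates (adjusted p up to 0.151). Of the distal FOS regions, the one 19.5 kb upstream ranked 7217, 8020 and 5918 in BE2C shAhR-2, 3433, 5492 and 4066 in shAhR-1, and 2762, 3138 and 3430 in pLKO. It fell by 1.18 under shAhR-2 against pLKO (SE 0.33, limma adjusted p = 0.0102), a call lost without replicate 2 of BE2C shAhR-2 (adjusted p = 0.0586). The region at 15.6 kb downstream, between FOS and its neighbour JDP2, which encodes an AP-1 repressor, was in all 18 lists. In BE2C its ranks overlapped, at 4841, 7078 and 5523 under shAhR-2, 5076, 8688 and 3841 under shAhR-1, and 5321, 5453 and 4300 under pLKO, and the difference under shAhR-2 was -0.20 (SE 0.34, limma adjusted p = 0.692).

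FOSB, a FOS protein with lasting forms in neurons, had a promoter peak in 14 lists (chr19:45970676-45971495 on hg19), all of low standing. Its ranks were 16853 to 23480 in Kelly shAhR-2, 16167 in the only Kelly shAhR-1 list with a peak, 26382 and 29186 in 2 Kelly pLKO lists, 29460 to 42271 in BE2C shAhR-2, 20637 and 23501 in 2 BE2C shAhR-1 lists and 20212 to 32219 in BE2C pLKO. A second region in the gene body, with its middle 1.5 kb downstream of the start and its edge within 1 kb, had a peak in 16 lists. Its median fold was 5.53, against 4.23 at the region over the start. The constant region 44.1 kb upstream differed by -0.33 under BE2C shAhR-2 against pLKO (SE 0.27, limma adjusted p = 0.358). Against shAhR-1 it was weaker, at -0.81 (SE 0.27, limma adjusted p = 0.0274), with ranks of 17237, 14540 and 19286 under shAhR-2 and 7494, 7884 and 15248 under shAhR-1, which overlapped. That call was lost without replicate 1 or 2 of BE2C shAhR-1 or replicate 1 or 3 of BE2C shAhR-2 (adjusted p up to 0.115).

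FOSL1, a FOS protein without a transactivation domain that is made in mesenchymal and invasive cells, lacked a promoter peak in 12 of 18 lists. The region over its start (chr11:65666892-65668173 on hg19) was called in the 6 shAhR-2 lists only, at ranks 48991, 52853 and 55791 in Kelly and 48184, 40845 and 55301 in BE2C. All but the rank of 40845 lie beyond the end of the 12 other lists, the longest of which had 45023 peaks, and at equal list length the FOSL1 promoter had no peak in any library. Over the series, 1.18% of regions had a peak in all 6 shAhR-2 lists and in none of the other 12, and 2 of the 79 regions at the loci did, the second being FOSL2 at 26.0 kb upstream. The distal regions of the FOSL1 locus, which is shared with 10 neighbours, include 3 that were called in BE2C. The one 18.8 kb upstream ranked 8067, 12128 and 9838 in BE2C shAhR-2, 5860, 8176 and 2692 in shAhR-1, and 4796, 3829 and 2305 in pLKO. It fell by 1.50 under shAhR-2 against pLKO (SE 0.39, limma adjusted p = 0.00518), and regions 12 and 42.6 kb downstream fell by 1.29 and 1.30 (SE 0.30 and 0.27, limma adjusted p = 0.00232 and 0.00107).

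FOSL2, a related FOS protein active in development, had a promoter peak in all 18 lists (chr2:28614591-28616078 on hg19). In BE2C it ranked 11407, 10527 and 13497 under shAhR-2, 10513, 7543 and 5325 under shAhR-1, and 8212, 5030 and 5918 under pLKO. In Kelly it ranked 8313, 6449 and 11624 under shAhR-2, 2170, 4115 and 5737 under shAhR-1, and 3187, 2528 and 4628 under pLKO. In both lines every shAhR-2 library, with its longer list, had a later rank than the other libraries of the line. The share of all regions with such an order was not computed. As a share of the full list the groups overlapped in both lines, at 13.6 to 16.5% in BE2C shAhR-2 and 13.3 to 23.9% in BE2C pLKO, and at 10.7 to 17.7% in Kelly shAhR-2 and 9.15 to 15.4% in Kelly pLKO. In lists of equal length the BE2C promoter peak fell by 0.91 (SE 0.30, limma adjusted p = 0.0259) and the region 36.7 kb upstream by 0.81 (SE 0.29, limma adjusted p = 0.0383) under shAhR-2 against pLKO. The 2 differences turned to 0.13 and 0.23 as a share of the full list (limma adjusted p = 0.783 and 0.605). Each call was lost in 5 of the 6 fits that left out 1 library. The promoter kept its call only without replicate 1 of BE2C pLKO and the distal region only without replicate 3 of BE2C pLKO, with adjusted p-values up to 0.114 and 0.144. In Kelly the FOSL2 promoter was not in all 9 shortened lists and was not tested, and the difference of the shAhR-2 effect between the lines was -0.44 (SE 0.45, limma adjusted p = 0.602).

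Between the control groups, 8 regions at the loci could be compared by rank, and 1 was stronger and 1 weaker in Kelly pLKO than in BE2C pLKO, against 12.7% and 12.6% of all regions. The FOSL2 promoter was stronger, by 0.90 (SE 0.32, limma adjusted p = 0.0376), and the FOSL1 region 18.8 kb upstream weaker, by -1.07 (SE 0.35, limma adjusted p = 0.0243). The first call was lost without replicate 1 or 3 of BE2C pLKO or replicate 1 or 2 of Kelly pLKO (adjusted p up to 0.168), and the second without replicate 3 of BE2C pLKO or replicate 2 or 3 of Kelly pLKO (up to 0.152). The FOSL2 difference was 0.43 as a share of the full list (limma adjusted p = 0.423), and 0 regions were stronger and 2 weaker, 18.8 kb upstream of FOSL1 and 41.5 kb upstream of JUND (3.32% and 19.8% of regions). At equal length the JUN and JUND promoters differed by -0.29 and -0.48 (limma adjusted p = 0.664 and 0.424).

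Presence of regions was also compared at equal list length. A region was called gained where all 3 libraries of the hairpin group and none of the other group had a peak, and lost in the reverse case, with no test, since 3 against 3 libraries allow no p below 0.1. Under BE2C shAhR-2 against pLKO, 0 of 45 regions at the loci were gained and 9 were lost, against 3.59% and 3.20% of all regions. The lost regions were 5 at JUNB, among them its promoter and the region 1.4 kb upstream, and 1 each at FOS, FOSB, FOSL1 and FOSL2. In the full lists all 9 had a peak in all 3 shAhR-2 libraries, past rank 25660, so that they were lost by rank and not by absence of a peak. At the JUNB promoter the deposited −log10 p-value was 16.7, 10.9 and 16.5 in shAhR-2 and 10.4, 16.4 and 13.4 in pLKO, which overlapped, while the fold enrichment, 3.21, 2.53 and 2.95 in shAhR-2 and 3.55, 4.44 and 3.26 in pLKO, did not. At the FOS region 41.1 kb upstream both overlapped, with a −log10 p-value of 15.1, 12.1 and 10.1 in shAhR-2 and 8.35, 8.34 and 21.8 in pLKO. The share of all regions without overlap in fold was not computed. In the full lists the median fold was also lower, at 4.42 to 5.22 in BE2C shAhR-2 and 5.73 to 6.33 in BE2C pLKO. At equal list length these medians overlapped, at 7.52 to 8.55 and 6.80 to 8.63. Against shAhR-1, shAhR-2 had 0 gained and 4 lost regions, 3 at JUNB and 1 at FOSB (3.09% and 2.02%). BE2C shAhR-1 against pLKO had 1 gained, at JUNB, and 1 lost, 32.5 kb downstream of FOSL1 (1.37% and 1.69%). That FOSL1 region (chr11:65635191-65635750 on hg19) had no peak in any full list of BE2C shAhR-1 or of Kelly.

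In Kelly, with 15 regions at the loci, shAhR-2 gained 0 and lost 0 against pLKO (2.84% and 2.90%) and gained 0 and lost 0 against shAhR-1 (3.73% and 3.22%). Under shAhR-1 against pLKO, 0 were gained and 1 was lost, 18.8 kb upstream of FOSL1 (1.33% and 1.61%). In the full lists, replicates 2 and 3 of shAhR-1 held a peak at that site, at ranks 14360 and 13688. Kelly pLKO against BE2C pLKO gained 0 and lost 1 of 19 regions, 36.6 kb upstream of FOSL2 (3.98% and 4.73%), which in full lists ranked 21486 and 23040 in replicates 1 and 3 of Kelly pLKO, with no peak in replicate 2, and 5640, 6887 and 8354 in BE2C pLKO.

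Full lists, in which longer lists add peaks, gave other counts. By open length, BE2C shAhR-2 had 5 of 7 loci called higher than pLKO by limma, all except JUNB and FOSB, against 73.9% of all windows higher and 0.0647% lower. Against shAhR-1, BE2C shAhR-2 had 7 of 7 loci higher (85.2% of windows higher, 0.0185% lower). Kelly shAhR-2 had 0 loci called against pLKO (50.1% higher, 0.106% lower) and 6 higher, all but JUN, against shAhR-1 (85.8% higher, 0.0694% lower). Between the control groups 0 loci were called (1.84% higher, 9.69% lower), and 0 for the difference of the shAhR-2 effect between the lines (5.55% higher, 4.70% lower). By presence of regions, BE2C shAhR-2 gained 6 and lost 0 of 73 regions against pLKO, where 13.5% of all regions were gained and 0.160% lost. The 6 were the FOSL1 promoter, the small JUN region 1.6 kb into the gene, the FOS region 25 kb downstream, the FOSB region 55.9 kb downstream and the FOSL2 regions 46.0 and 26.0 kb upstream. Kelly shAhR-2 gained 2 and lost 0 of 67 regions, at JUNB 21.6 kb and FOSL2 26.0 kb upstream, against 12.1% gained and 0.217% lost over the series.

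JUNB, JUND and FOSB lie on chromosome 19, whose share of the shortened lists moved with the groups. It was 3.34 to 3.65% in BE2C shAhR-2, 4.06 to 4.24% in BE2C shAhR-1 and 4.14 to 4.32% in BE2C pLKO, and 4.11 to 4.74% in Kelly shAhR-2, 2.71 to 3.34% in Kelly shAhR-1 and 3.22 to 3.78% in Kelly pLKO. Its part in the results at these 3 loci was not tested. Of the 9 regions that were weaker in rank under BE2C shAhR-2, 7 lie on chromosomes 1, 2, 11 and 14, and the JUND regions lie on chromosome 19. JUNB, the only locus with a called open length in BE2C shAhR-2 against pLKO, lies there too, as do the lost regions at JUNB and FOSB.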

How the data were processed

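ATAC-seq libraries were made with 30 min of transposition and 10 PCR cycles, per the labels' protocols. The submitters' processing notes name hg19 as the build and, as tools, MACS2 (2.1.0), BWA (0.7.17), Trimmomatic (0.33), deepTools (3.1.3) and CASAVA (1.8.2). The role of each tool, and how duplicates, mitochondrial reads and the transposase offset were handled, was not given in the sources used here. These steps could move summits and decide which peaks were called. The authors deposited 1 peak list per library. Per peak, the authors deposited an integer score, a fold enrichment as a linear ratio, and a −log10 p-value and −log10 q-value, which belong to single peaks.

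Only peaks of chromosomes 1 to 22 and X entered. Groups and replicate numbers came from the sample titles. Peaks that shared 1 bp or more were merged, and distances run from the hg19 gene start to the middle of a region. Lists were shortened to the shortest list of a fit. limma 3.58.1 (trend) in R 4.3.3 was fitted over windows with a peak in at least 3 libraries, with a pseudocount of 0.5 kb, and over regions with a peak in every list for ranks, with Benjamini-Hochberg adjustment over all windows or regions and a threshold of 0.05. The members and lists were chosen with earlier results of these data known, and the rank tests were added after the data were seen. Regions outside promoters were named by presence calls, then by the number of lists and the median fold, or because a rank test called them, and the JUN regions outside this rule were chosen after their values were seen. An hg19 annotation was not used here, so other AP-1 pathway genes, cell type markers and genes with a like pattern were not analysed. Functions were tested on simulated data. Alternatives were full lists, a −log10 q of at least 5, flanks of 25 and 100 kb, pseudocounts of 0.1 and 2 kb, no filter, 50% coverage, 2 of 3 libraries, a replicate block, ranks as a share of the full list (added after the data were seen), and each replicate left out.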

Additional observations from a re-analysis of the deposited data

Results flagged for a closer look

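JUN was marked in 2 measures because the shAhR-2 effect differed between the lines by a test of the difference itself. The rank of its promoter region differed by 2.16 on the log2 scale (Kelly effect minus BE2C effect, SE 0.62, limma adjusted p = 0.0336), with a later rank in 3 of 3 BE2C shAhR-2 libraries than in every BE2C pLKO library, while the Kelly groups overlapped. The share of all regions with such an order was not computed. The limma call for JUN was lost in 8 of 12 fits that left out 1 library (limma adjusted p from 0.0394 to 0.0843 over the 12) and with ranks as a share of the full list (2.33, limma adjusted p = 0.0560). Its open length at 9204 peaks per list differed by 1.72 (SE 0.27, limma adjusted p = 5.09e-04), and that value turned to -0.23 in full lists and was 0.28 without replicate 1 of Kelly shAhR-1, where JUNB was called instead, at 3.35. In that last fit 722 of 15737 windows were called higher and 747 lower.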

How the results depend on the processing

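Of 329 counts under alternatives, 259 stayed within 1.5 times the value reported and 70 did not. This tally takes both directions together, so a count can stay while its direction turns. In BE2C shAhR-2 against pLKO, 0 gained and 9 lost regions became 6 gained and 0 lost in full lists and at a −log10 q of at least 5. That change counts as within 1.5 times, and 13.5 and 19.1% of all regions were gained there. Of 255 single values, 184 kept direction and call, 57 kept direction but lost the call, and 14 turned. In full lists and at a −log10 q of at least 5, JUNB open length in BE2C shAhR-2 turned to 0.50 and 0.63 against pLKO and to 0.92 and 1.11 against shAhR-1 (limma adjusted p = 0.00596 and 0.0129), and the JUN difference between the lines to -0.23 and -0.34. The cause was not tested. Loci with a changed open length in BE2C shAhR-2 against pLKO (1 as reported) were 5 in full lists, 4 at the stricter q and 3 with 25 kb flanks. Against shAhR-1 (1) they were 7, 7 and 2, and 2 with a pseudocount of 2 kb. For the shAhR-2 difference between the lines (1) they were 0, 0 and 2, and 2 with that pseudocount. In Kelly shAhR-2 against shAhR-1 (0) they were 6 and 6. In BE2C shAhR-2 against pLKO, 13271 of 19520 windows were called higher at the stricter q. With 25 kb flanks 4601 of 20593 were higher and 541 lower. Against shAhR-1, 16407 of 19520 were higher at the stricter q. With 25 kb flanks 6905 of 20593 were higher, and 6477 of 15287 with the 2 kb pseudocount. In Kelly against shAhR-1, 14865 of 18341 were higher at the stricter q. For the difference between the lines, 546 of 11905 were higher and 623 lower with 25 kb flanks. Regions gained or lost, in full lists and at the stricter q, were 2 and 0 in Kelly shAhR-1 against pLKO (1; 0 with 50% coverage), 2 and 5 in Kelly shAhR-2 against pLKO (0), 12 and 19 in Kelly shAhR-2 against shAhR-1 (0; 2 with 2 of 3 libraries), 1 and 1 in BE2C shAhR-1 against pLKO (2), 11 and 7 in BE2C shAhR-2 against shAhR-1 (4; 9 with 2 of 3 libraries), and 2 and 3 in Kelly pLKO against BE2C pLKO (1; 0 with 25 kb flanks, 2 with 2 of 3 libraries). In full lists and at the stricter q the loci held 67 and 56 regions in Kelly, 73 and 63 in BE2C, and 79 and 65 between the control groups. Of all regions, 17.9 and 26.0% were gained in Kelly shAhR-2 against shAhR-1, and 12.1 and 15.3% against pLKO. In BE2C shAhR-2 against shAhR-1, 14.8 and 21.0% were gained. Under shAhR-1 against pLKO, 0.908 and 1.40% were lost in Kelly and 0.780 and 0.875% in BE2C. Between the control groups 3.58 and 4.52% were lost. With 2 of 3 libraries, Kelly shAhR-2 gained 1 and lost 1 of 15 regions against shAhR-1 (7.33 and 8.34% of all regions). BE2C shAhR-2 gained 1 and lost 8 of 45 against shAhR-1 (5.98 and 5.83%). Kelly pLKO gained 0 and lost 2 of 19 against BE2C pLKO (7.47 and 7.93%). Regions with a changed rank in full lists were 15 in BE2C shAhR-2 against pLKO (9), 14 against shAhR-1 (8), and 4 in Kelly pLKO against BE2C pLKO (2, and 4 at the stricter q). Of 18250 regions tested in full BE2C lists, 2616 were stronger and 3103 weaker under shAhR-2 against pLKO, and 2203 and 3134 against shAhR-1. Between the control groups 1815 of 11739 were stronger and 1373 weaker, and 1324 and 1063 of 9110 at the stricter q. With ranks as a share of the full list, which by construction lifts the values of longer lists, changed regions were 1 in BE2C shAhR-2 against pLKO, 4 against shAhR-1, 2 in Kelly shAhR-2 against shAhR-1 (0) and 0 for the difference between the lines (1). Under it the FOSL2 regions turned to 0.23 and 0.13 in BE2C shAhR-2 against pLKO. Against shAhR-1, FOSL1 regions turned to 0.38 and 0.44, FOS to 0.50, JUND to 0.04 and FOSB to 0.50 and 0.51. With 1 library left out, changed open lengths ranged from 0 to 1 (JUN) in Kelly shAhR-2 against pLKO, 1 to 2 and 0 to 3 in BE2C shAhR-2 against pLKO and shAhR-1, 0 to 2 between the control groups and 1 to 2 for the difference between the lines. For BE2C shAhR-2 against pLKO, those fits called 1371 to 4119 windows higher and 158 to 217 lower. Against shAhR-1 they called 1654 to 7327 higher and 140 to 240 lower. For the shAhR-2 difference between the lines they called 325 to 722 higher and 369 to 747 lower. Regions gained or lost ranged from 0 to 2 and 0 to 3 in Kelly shAhR-2 against pLKO and shAhR-1, 2 to 4 in BE2C shAhR-1 against pLKO, and 1 to 7 between the control groups (7 without replicate 1 of Kelly shAhR-1, with longer lists). The 7 were 2 gained and 5 lost of 51 regions, against 4.04 and 5.85% of all regions. Without that library, Kelly shAhR-2 gained 1 and lost 1 of 44 regions against pLKO (4.09 and 3.43%). Against shAhR-1 it gained 2 and lost 1 (5.63 and 6.05%). Without replicate 3 of BE2C shAhR-1, BE2C shAhR-1 gained 1 and lost 3 of 46 regions against pLKO (2.82 and 2.36%). Changed ranks ranged from 0 to 2 and 0 to 1 in Kelly shAhR-2 against pLKO and shAhR-1, and 6 to 8 and 4 to 9 in BE2C. They ranged from 0 to 2 between the control groups and 0 to 1 for the difference between the lines. Over the series, BE2C shAhR-2 against shAhR-1 had 1294 to 2142 regions stronger and 1163 to 2022 weaker in those fits. The control groups had 846 to 1290 stronger and 828 to 1087 weaker. For the shAhR-2 difference between the lines, 136 to 289 were stronger and 187 to 479 weaker.

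Replicate numbers showed no sign of pairing. The correlations of same-numbered libraries ran from -0.135 to 0.034 in BE2C and from -0.078 to 0.021 in Kelly. Those of differently numbered libraries ran from -0.048 to 0.119 in BE2C and from -0.047 to 0.088 in Kelly. Such correlations cannot show whether libraries were prepared together, which the labels do not say. A replicate block gave -1.61 for JUNB open length (limma adjusted p = 0.0274) and -1.96 for the JUN promoter rank (limma adjusted p = 0.00257) in BE2C shAhR-2 against pLKO, and 8 weaker regions in place of 9. It left 1 changed region between the control groups in place of 2. List length, which read depth can set, limits what a missing peak can show.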
